A study of Mus musculus with 16 samples.

Results

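Thymocytes pass from a double negative (DN) to a double positive (DP) stage and then become CD4 single positive (SP4) or CD8 single positive (SP8) cells. The regions described here were open chromatin sites called at DP and at SP4, with no peak at DN and none at SP8. They were found by merging the peaks of the 4 stages wherever these shared at least 1 bp, and keeping the merged regions that held a DP and an SP4 peak and no other. Of 185978 merged regions on chromosomes 1 to 19, 2302 met this rule, which is 1.24% (95% Wilson interval 1.19 to 1.29%). The regions were therefore chosen by measured peak calls, and their heights at DP and SP4 are a description that carries no test.

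The data were ATAC-seq profiles, in which a transposase cuts and tags DNA where chromatin is accessible. All cells came from wild type C57BL/6J mice 9 weeks old, 4 animals with 1 library of each stage, 16 libraries in all. The stages were sorted by flow cytometry on CD4, CD8 and CD3 after removal of cells carrying lineage markers of erythroid, B, myeloid, dendritic, natural killer and gamma delta T cells. DN cells lacked CD4, CD8 and CD3, DP cells carried both coreceptors, SP4 cells carried CD4 and CD3 without CD8, and SP8 cells carried CD8 and CD3 without CD4. The reads of the 4 mice were pooled per stage before peaks were called, so each stage was represented by 1 peak list (150139 DN, 107110 DP, 115074 SP4 and 104411 SP8 peaks) and no value had a replicate error. No comparison below measures the spread between mice, and the intervals given cover counting error only. The lists themselves carry no read counts, and a stage without a peak may hold signal below the 5% false discovery rate. The libraries had been down-sampled to their median depth before pooling, and the pooled stages still differed in read number. The start sites of all 10 genes checked as T lineage markers, among them *Cd3e*, *Lck*, *Cd4* and *Cd8a*, lay under a peak in all 4 lists, so these sites did not separate the stages.

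DP thymocytes rearrange the T cell receptor alpha chain and are tested for recognition of MHC. Cells selected on MHC class II become SP4 helper-lineage cells, and those selected on MHC class I become SP8 cytotoxic-lineage cells. At the DP stage, E proteins such as E2A and HEB bind E-boxes and keep the DP programme active. TCF7 and LEF1 act through DP and CD4 lineage development, and RUNX3 is a main regulator of the CD8 lineage.

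Peak heights were ranked by fold enrichment within each stage list and are given as percentiles, so that percentile 75 exceeds 75% of that list. Regions are named by the nearest protein-coding gene, which need not be the gene they act on. To show what these sites look like, the 100 bp centred on the summit (the highest point of the taller peak) are printed for 10 regions. The first 5 were the tallest by the lower of their DP and SP4 percentiles. The other 5 were chosen after their values and letters were seen, because they hold the motifs compared further on. All are plus-strand sequences of the GRCm38 (mm10) reference, 5′ to 3′. Capitals mark matches on either strand to E-box (CAGCTG or CAGGTG), RUNX (TGTGGT), TCF7/LEF1 (CTTTGA), CTCF (CCACNAGG) and the GATA factors (with the letters AGATAA), and to an ETS-type core (AGGAAG) that was added after the sequences had been read.
*Disp1* intron, chr1:183095216-183095315: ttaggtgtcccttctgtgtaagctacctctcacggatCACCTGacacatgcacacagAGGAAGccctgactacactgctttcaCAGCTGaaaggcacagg
*Cd83* flank, chr13:44223154-44223253: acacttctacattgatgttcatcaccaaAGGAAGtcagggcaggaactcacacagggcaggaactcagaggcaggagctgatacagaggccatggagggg
*Rb1cc1* exon, chr1:6261067-6261166: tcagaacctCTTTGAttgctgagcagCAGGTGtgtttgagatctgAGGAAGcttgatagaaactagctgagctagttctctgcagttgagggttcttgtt
*Incenp* flank, chr19:9931269-9931368: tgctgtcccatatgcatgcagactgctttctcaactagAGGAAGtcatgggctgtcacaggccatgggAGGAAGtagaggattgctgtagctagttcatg
*Bcl6* flank, chr16:24141471-24141570: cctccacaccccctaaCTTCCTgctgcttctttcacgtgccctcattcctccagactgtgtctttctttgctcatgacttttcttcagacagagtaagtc
*Nebl* intron, chr2:17690392-17690491: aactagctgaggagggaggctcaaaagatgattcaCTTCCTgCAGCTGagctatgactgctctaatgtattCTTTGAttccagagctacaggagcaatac
*Rmnd5a* exon, chr6:71390573-71390672: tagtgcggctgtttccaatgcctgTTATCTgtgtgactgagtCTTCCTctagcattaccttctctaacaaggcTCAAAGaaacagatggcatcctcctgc
*Rasgrp1* exon, chr2:117286910-117287009: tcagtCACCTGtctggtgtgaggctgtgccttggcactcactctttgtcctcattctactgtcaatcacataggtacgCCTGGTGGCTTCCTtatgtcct
*Nr4a1* exon, chr15:101274586-101274685: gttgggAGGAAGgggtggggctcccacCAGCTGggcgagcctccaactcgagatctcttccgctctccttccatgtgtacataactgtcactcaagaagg
*Ets1* flank, chr9:32788696-32788795: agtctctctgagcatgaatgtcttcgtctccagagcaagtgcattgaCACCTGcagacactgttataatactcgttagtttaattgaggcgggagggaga

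The tallest region in both lists lay in an intron of *Disp1*, which encodes a transmembrane protein that releases Hedgehog ligands, at chr1:183095103-183095451. Its fold enrichment was 12.5 at DP (percentile 82.2) and 15.2 at SP4 (percentile 85.5), and the nearest DN and SP8 peaks were 6804 bp and 7339 bp away. Its printed window holds 2 E-box matches. The second lay 419936 bp downstream of *Cd83*, a surface protein of activated lymphocytes and dendritic cells, at chr13:44223068-44223301, with a fold enrichment of 10.3 at DP (percentile 75.9) and 19.1 at SP4 (percentile 91.6). All 100 bp of that window were marked as repeat sequence in the reference. The third overlapped an annotated exon in *Rb1cc1*, an autophagy initiation factor, at chr1:6260918-6261271, and reached percentile 75.9 at DP and 76.4 at SP4. These 3 regions were the only ones at or above percentile 75 in both lists, and none of the 2302 reached percentile 90 in both.

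**Figure D1:**
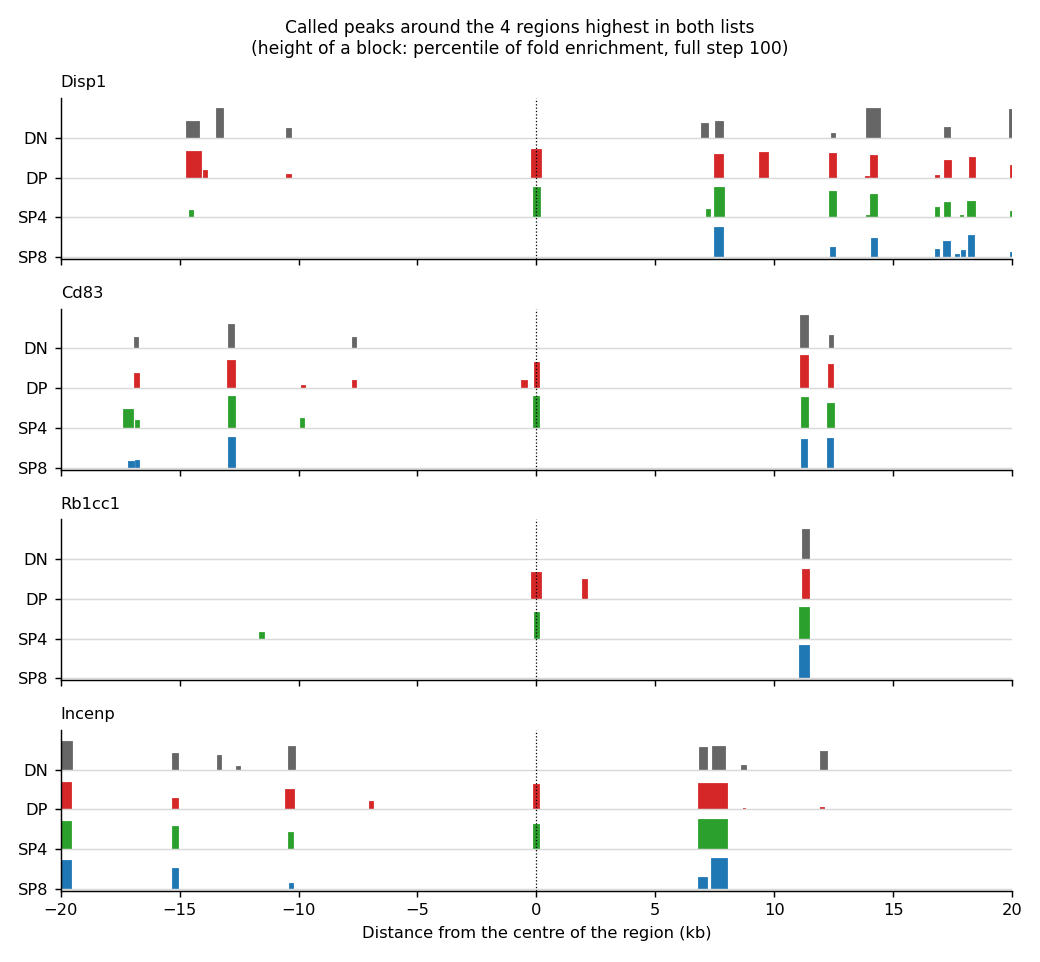
Called peaks of the 4 stages within 20 kb of the 4 regions tallest in both lists. Each block spans a peak along the horizontal axis (distance from the region's centre, kb) and its height is the percentile of fold enrichment. At the dotted line peaks stand at DP and SP4 alone, while the neighbouring peaks include sites called at all 4 stages.

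The other 9 of the 12 tallest regions, by the same lower percentile, reached at least percentile 64.7 in both lists. They were nearest to *Incenp*, *Bcl6*, *Sptssa*, *Nebl*, *Etnk1*, *Ube2e1*, *Erc1*, *Ptger4* and *Crmp1*. *Incenp* encodes a subunit of the chromosomal passenger complex, and the region at chr19:9931216-9931410, 31665 bp from it, had percentiles of 70.9 at DP and 72.5 at SP4. *Bcl6* encodes a transcriptional repressor of germinal centre B cells and follicular helper T cells. The *Bcl6* region at chr16:24141422-24141620 lay 152570 bp upstream and was taller at DP (fold enrichment 12.4, percentile 81.9) than at SP4 (9.24, percentile 68.9). The *Ptger4* region, 252267 bp from this prostaglandin E2 receptor gene, stood at percentile 65.6 at DP and 71.7 at SP4. The *Crmp1* region, at chr5:37289173-37289328, had a DN peak 50 bp away, so that site sat beside chromatin called at a stage it lacked.

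Most of the regions were low. The median percentile was 26.5 at DP (95% interval of the median 25.04 to 27.0) and 26.9 at SP4 (24.0 to 28.4), against 68.2 and 69.4 for the 63369 regions called at all 4 stages. Other classes missing from a list were low too. Regions called at DP and SP8 only had medians of 19.9 at DP and 16.7 at SP8. Those called at DP, SP4 and SP8 had 27.0 at DP and 41.2 at SP4. Median fold enrichments were 3.93 at DP and 4.10 at SP4, and the merged regions were 100 to 726 bp wide with a median of 177 bp. Only 83 regions (3.61%) stood at or above percentile 50 in both lists. Fold enrichment took repeated values at these heights, and 116 regions shared the DP value of 3.74. In 2289 of the 2302 regions there was 1 DP and 1 SP4 peak. The DP and SP4 summits were a median of 21 bp apart, and lay within 50 bp of each other in 1819 regions (79.0%).

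The regions split evenly between the stages. The DP percentile was above the SP4 percentile in 1131 regions (49.1%, 95% Wilson interval 47.1 to 51.2%). DP was higher by 20 points or more in 396 regions, SP4 was higher by as much in 391, and the remaining 1515 lay within 20 points. Across the 2302 regions the Pearson correlation of the percentiles was 0.33 and the Spearman correlation 0.37, a description over sites that share 2 peak lists.

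Individual regions departed far from equality. The region tallest at DP, in *Scaper*, a cyclin A binding protein gene, at chr9:55708383-55708773, had a fold enrichment of 29.9 (percentile 99.2) at DP and 6.64 (percentile 55.3) at SP4. A region in *Tube1*, which encodes epsilon-tubulin, stood at percentile 97.8 at DP and 48.9 at SP4. The region at chr13:101575678-101575990, 104573 bp downstream of *Pik3r1*, which encodes the p85 regulatory subunit of PI3 kinase, had a fold enrichment of 25 at DP (percentile 97.7) and 7.11 at SP4 (percentile 58.3). The region tallest at SP4 was at chr16:24008055-24008472, 19203 bp upstream of *Bcl6*, with a fold enrichment of 19.9 (percentile 92.5) at SP4 and 3.51 (percentile 16.6) at DP. Regions of *Tmprss13* and *Masp1*, both genes of serine proteases, were also high at SP4 (percentiles 84.4 and 83.4) and lower at DP (43.1 and 36.1). These regions were named for their extreme values.

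**Figure D2:**
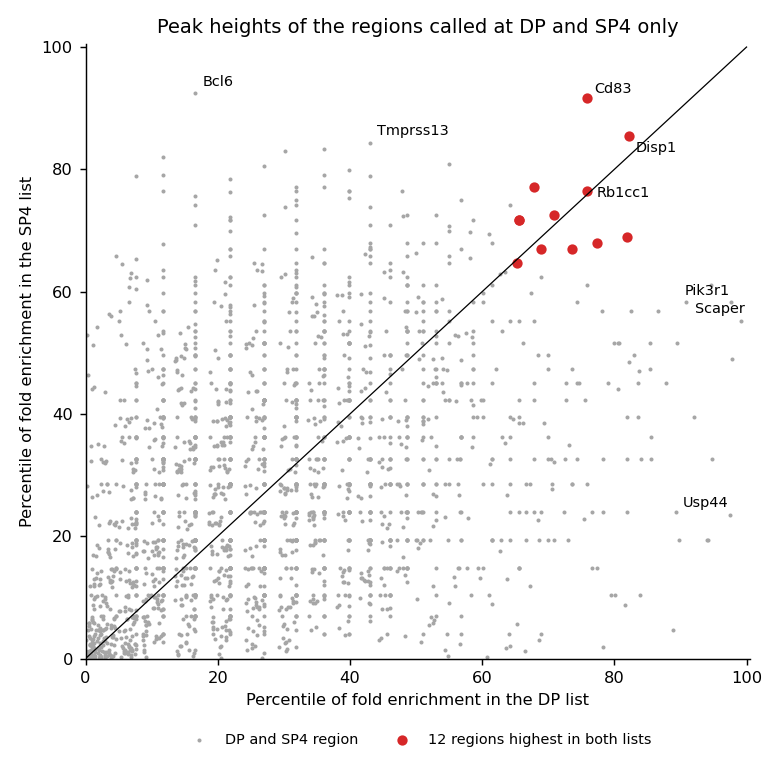
Each point is 1 of the 2302 regions, placed by its percentile of fold enrichment among DP peaks (horizontal) and among SP4 peaks (vertical), with red points for the 12 regions tallest in both lists and a line at equality. Most points lie low in both lists, at medians of 26.5 and 26.9. The labelled *Bcl6* region is much taller at SP4 than at DP, and the *Scaper* region much taller at DP than at SP4.

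Membership depended on the absence of a call at DN and SP8. The weakest peaks just inside the rule were a DP peak with a q-value of 0.0440 at chr5:106912513-106912680 and an SP4 peak with 0.0436 at chr2:60195764-60195875. Just outside, a region at chr10:58436328-58436634 held DP and SP4 peaks but also an SP8 peak with a q-value of 0.0261, as did a region on chromosome 18 with the same value. In 203 regions (8.82%) the weaker of the DP and SP4 peaks had a q-value above 0.001. The nearest DN peak was a median of 1875 bp away and the nearest SP8 peak 2529.5 bp. A DN or SP8 peak lay within 500 bp of 705 regions (30.6%, 28.8 to 32.5%), and within 100 bp of 177 (7.69%). The nearest other merged region was one called at all 4 stages for 871 regions (37.8%), which is close to the 34.6% found over all regions. It was a DP-only region for 208 (9.04%, against 5.09% of all regions), an SP4-only region for 210 (9.12%, against 7.14%), a DN-only region for 282 (12.3%, against 21.1%) and another DP and SP4 region for 86 (3.74%, against 1.24%). Regions called at DP and SP8 only also had more DP-only (7.18%), more DP and SP4 (2.60%) and fewer DN-only neighbours (10.5%) than all regions. Those shifts were therefore not particular to the DP and SP4 regions. SP4-only neighbours of DP and SP8 regions were less frequent than over all regions. Neighbour classes came from the same peak calls as the rule, so the shares are a description.

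The counterpart on the CD8 side is the set of regions called at DP and SP8 only, which numbered 1268. The ratio of the 2302 DP and SP4 regions to these was 1.82 (95% interval 1.70 to 1.94), and it was above 1 on all 19 chromosomes, from 1.24 on chromosome 4 to 2.27 on chromosome 14. The SP4 list was 1.10 times as long as the SP8 list. When the 4 lists were cut to equal length by q-value, 2946 DP and SP4 and 2854 DP and SP8 regions were found, and the ratio was 1.03 (0.9804 to 1.09), so the excess was not seen in the cut lists. The cut kept the SP8 list whole and dropped the weakest peaks of the others. Regions of all 3 later stages rose from 3286 to 7154. The part of list length in the excess was not tested. Among regions above the median height in each of their lists the counts were 83 and 11. Of the 16475 regions called at DP and not at DN, 58.4% were called at DP alone, 14.0% (13.5 to 14.5%) at DP and SP4, 7.70% at DP and SP8, and 19.9% at all 3 later stages. The DP and SP4 share of all merged regions ranged from 0.931% on chromosome 8 to 1.75% on chromosome 14.

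The regions lay mostly away from promoters. A promoter, taken as the 200 bp upstream of a transcriptional start site (TSS), was met by 112 regions (4.87%, 4.06 to 5.82%), an exon without a promoter by 330 (14.3%), and an intron by 1111 (48.3%). The other 749 (32.5%) were between genes. Over all merged regions 12.4% met a promoter. Against DP and SP8 regions, 9.31% of which met a promoter, the share was 4.44 percentage points lower (interval of the difference -7.28 to -1.90 points, with the 5% error divided over 12 comparisons), and it was lower on 15 of 19 chromosomes. Without the regions that had a peak of an absent stage within 500 bp, the same difference was -1.35 points (-4.42 to 1.05), which did not pass. Against regions called at DP, SP4 and SP8 (7.12%) the share was 2.26 points lower (-4.05 to -0.383), on 16 of 19 chromosomes, but this did not pass in 4 of 10 alternatives, with -1.39 points (-3.19 to 0.517) without such neighbours, -1.11 points (-3.18 to 0.976) with peaks sharing at least 50% of each other, -1.26 points (-2.72 to 0.281) with protein-coding transcripts alone and -2.03 points (-7.54 to 8.81) above the median height. Against SP4 and SP8 regions (3.99%) the difference of 0.880 points (-0.462 to 2.46) did not pass, while at equal list length it was 1.35 points (0.0935 to 2.79) and with protein-coding transcripts alone 1.40 points (0.364 to 2.69), which passed. It was -0.0909 points without such neighbours and -1.26 points above the median height, so its direction depended on the setting. The DP and SP4 regions were in introns less often than SP4 and SP8 regions (by -6.00 points, -9.42 to -2.56, lower on 17 of 19 chromosomes). They were in exons more often (by 2.49 points, 0.218 to 4.95, higher on 12 of 19). Over all merged regions, 44.0% were in introns and 13.5% in exons. Neither difference was examined under the alternatives.

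The median distance to a TSS was 6370 bp (5930 to 6834 bp), with quartiles of 1686.5 and 14931 bp. It depended on the annotation, and was 11905 bp with RefSeq transcripts alone and 17709.5 bp with protein-coding transcripts alone. With both annotations it was 4517 bp for DP and SP8 regions, 6777 bp for SP4 and SP8 regions and 6150.5 bp for regions of all 3 later stages. On 17 of 19 chromosomes the DP and SP4 regions had the longer median than the DP and SP8 regions, and on 5 of 19 than the SP4 and SP8 regions. The windows had a mean GC content of 51.1% (SD 6.80 over regions), against 55.1% in DP and SP8 regions and 49.0% in SP4 and SP8 regions. In 275 windows (11.9%, 10.7 to 13.3%) at least 50 of the 100 bp were repeat sequence, against 7.35% of all regions. The share was similar in DP and SP8 regions (12.1%, 10.5 to 14.1%). It was 9.89% in SP4 and SP8 regions and 9.68% in regions of all 3 later stages.

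The sequence of the 100 bp windows was not used by the rule, so motif shares could be compared with those of the other classes. Across 24 consensus motifs and 3 classes, 8 of 72 differences passed an interval at a level of 99.93%, and they concerned E-box, RUNX, NR4A, AP-1, IRF and SP motifs. E-box letters, bound by E proteins, were found in 417 of 2302 windows (18.1%, 16.6 to 19.7%). The share was 9.93% in SP4 and SP8 regions, a difference of 8.19 points (5.33 to 11.3) seen on all 19 chromosomes, and 13.1% in regions of all 3 later stages, a difference of 4.998 points (1.67 to 8.43), also on all 19. Against DP and SP8 regions (19.9%) the difference was -1.76 points (-6.56 to 2.79) and did not pass. Over all merged regions, 24.5% of windows held E-box letters. The classes differ in peak height as well, since SP4 and SP8 regions had a median SP4 percentile of 36.3 and DP and SP8 regions a median DP percentile of 19.9. The part of height, and of GC content, in the motif shares was not tested.

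RUNX letters were scarce in the DP and SP4 regions. TGTGGT or its complement was found in 166 windows (7.21%, 6.22 to 8.34%), against 12.1% in DP and SP8 regions (a difference of -4.93 points, -8.75 to -1.48, lower on 16 of 19 chromosomes). SP4 and SP8 regions held it in 14.3% (-7.11 points, -9.30 to -4.66, lower on all 19), and all merged regions in 15.8%. The difference from regions of all 3 later stages (9.68%) was -2.47 points (-4.96 to 0.140) and did not pass.

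AP-1, IRF and NR4A letters were found less often than in SP4 and SP8 regions, while their differences from the other classes compared did not pass. AP-1 letters (TGANTCA) were found in 3.69% against 7.06% (-3.36 points, -4.93 to -1.51), IRF letters (AAANNGAAA) in 1.52% against 4.45% (-2.93 points, -4.05 to -1.56) and NR4A letters (AAAGGTCA) in 0.174% against 1.61% (-1.43 points, -2.04 to -0.665). The differences for NFAT (TGGAAA, -1.56 points, -3.13 to 0.307), NF-kB (GGGANTTTC, -0.589, -1.01 to 0.0388), STAT (TTCNNNGAA, -0.831, -1.92 to 0.568) and EGR (GCGTGGG, -0.00311, -0.668 to 1.004) did not pass. Over all merged regions the shares were 3.88% for AP-1, 2.40% for IRF and 0.321% for NR4A. In DP and SP8 regions they were 3.31%, 1.26% and 0.394%, and in regions of all 3 later stages 3.80%, 2.31% and 0.639%. The NR4A share of the DP and SP4 regions rested on 4 windows. SP letters (GGGCGG), typical of promoters, were found in 2.95% against 5.84% in DP and SP8 regions (-2.88 points, -5.71 to -0.523). This difference did not pass with peaks sharing at least 50% of each other (-1.66 points, -4.66 to 0.790) or without a peak of an absent stage within 500 bp (-2.07 points, -5.54 to 0.359), and above the median height it was 2.41 points in the other direction. Over all 3 classes no difference passed for TCF7/LEF1, GATA, CTCF or EGR. TCF7/LEF1 letters were found in 10.1% (8.96 to 11.4%) of the DP and SP4 regions, 7.02% of DP and SP8 regions and 7.63% of all regions. The share was higher in SP4 and SP8 regions (11.8%) and in regions of all 3 later stages (10.7%). GATA letters were found in 3.43% (against 3.37% of all regions), CTCF in 2.13% (against 3.37%) and EGR in 0.912% (against 0.976%). All motifs were searched on both strands. Some share letters, as the RUNX complement ACCACA and KLF (CCACACC).

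Within the DP and SP4 regions, the shares with E-box and TCF7/LEF1 letters were ordered oppositely by relative height. E-box letters were found in 98 of the 396 regions higher at DP (24.7%, 20.8 to 29.2%), in 17.4% (15.6 to 19.4%) of those within 20 points and in 55 of the 391 higher at SP4 (14.1%, 11.0 to 17.9%). For TCF7/LEF1 the shares were 7.83% (5.57 to 10.9%), 9.97% (8.56 to 11.6%) and 13.0% (10.1 to 16.7%). For PKNOX/MEIS (TGACAG) they were 9.09%, 11.8% and 14.6%, and for RUNX 7.83%, 7.26% and 6.39%. These shares were read from 24 motifs with intervals not corrected for their number, and the groups were formed from the heights, so they are a description with no call. The ETS-type core AGGAAG, in capitals in 9 of the 10 printed windows, was found in 879 windows (38.2%, 36.2 to 40.2%), in 24.6% of DP and SP8 regions, 26.2% of SP4 and SP8 regions, 32.7% of regions of all 3 later stages and 26.7% of all regions. As this motif was picked from these sequences, the shares are a description with no call. The ETS consensus CCGGAA, 1 of the 24 motifs, was found in 1.74% of the DP and SP4 regions and 2.64% of all regions. Its share was 2.37% in DP and SP8 regions, 1.28% in SP4 and SP8 regions and 2.37% in regions of all 3 later stages. None of these 3 class differences passed.

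**Figure D3:**
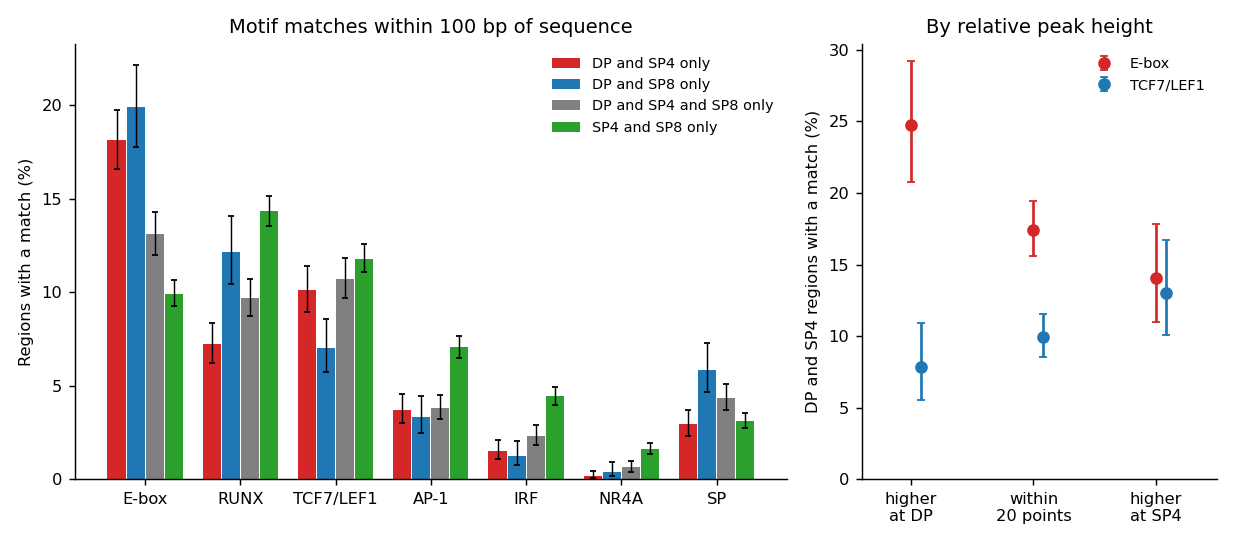
Left, share of regions (%) with a consensus match in the 100 bp around the summit for 7 motifs in 4 classes. Right, share of DP and SP4 regions (%) with E-box or TCF7/LEF1 letters by which stage had the taller peak. Error bars are 95% Wilson intervals. E-box letters were found in 24.7% of regions higher at DP and 14.1% of those higher at SP4, and RUNX letters were fewest in the DP and SP4 regions.

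Of 20780 protein-coding genes, 3683 (17.7%) had a DP and SP4 region in the gene or within 50 kb. By nearest gene the regions spread over 1777 genes, of which 1422 had 1 region. *Gm20388* came first with 9, but this gene model is 4434882 bp long and contains 71 other genes. *Satb1* followed with 8 and *Cdkal1*, *Jazf1*, *Lpp* and *Tox* with 6 each. Of the 1 Mb bins of the genome that hold merged regions, 1251 of 2298 held no DP and SP4 region, and the fullest, from 24 to 25 Mb of chromosome 16, with all of *Lpp* and the stretch between it and *Bcl6*, held 10 among its 201 merged regions, with 2 DP and SP8 regions. Another DP and SP4 region lay within 10 kb of 198 regions (8.60%), against 6.78% for DP and SP8 regions and 27.0% for the more numerous SP4 and SP8 regions.

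*Satb1* encodes a chromatin organiser that is abundant in thymocytes and needed for lineage choice. Its 8 regions formed a low and a high group. The 5 in the gene stood at percentiles of 1.36 to 3.82 at DP and 0.0652 to 3.47 at SP4, with DN and SP8 peaks 284 to 2682 bp away. The 3 upstream were taller. At 105719 bp upstream the percentiles were 83.6 at DP and 39.4 at SP4, at 166957 bp they were 55.1 and 64.7, and at 304341 bp they were 7.70 and 78.9. The nearest DN peak was 24393 bp from the last of these.

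*Bcl6* had 5 regions and *Lpp*, a LIM protein of cell adhesion, 6, and 10 of these 11 lay upstream of *Bcl6* and outside *Lpp*. Beside the 2 *Bcl6* regions already described, those at 40774, 187392 and 2759 bp upstream of the gene had DP percentiles of 36.1, 25.8 and 10.5 and SP4 percentiles of 47.4, 38.8 and 13.1. The nearest pair, at chr16:24279955-24280198 and chr16:24280425-24280593, had percentiles of 55.1 and 36.1 at DP and of 65.8 and 47.4 at SP4, with no DN peak within 11935 bp. *Tox* encodes an HMG-box factor needed for CD4 lineage development. Of its 6 regions, 2 were in introns and 4 lay 301404 to 466083 bp upstream. The tallest of these, at 459480 bp, had a percentile of 68.6 at DP and 3.11 at SP4.

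*Bcl6*, *Pik3r1* and *Cd83*, with 5 regions each, were chosen here after their values were seen. All but 1 of the *Pik3r1* regions lay outside the gene, and the 3 downstream had percentiles of 64.3, 68.4 and 97.7 at DP and of 74.2, 22.7 and 58.3 at SP4. The 5 *Cd83* regions all lay downstream, between 17719 and 419936 bp from the gene.

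**Figure D4:**
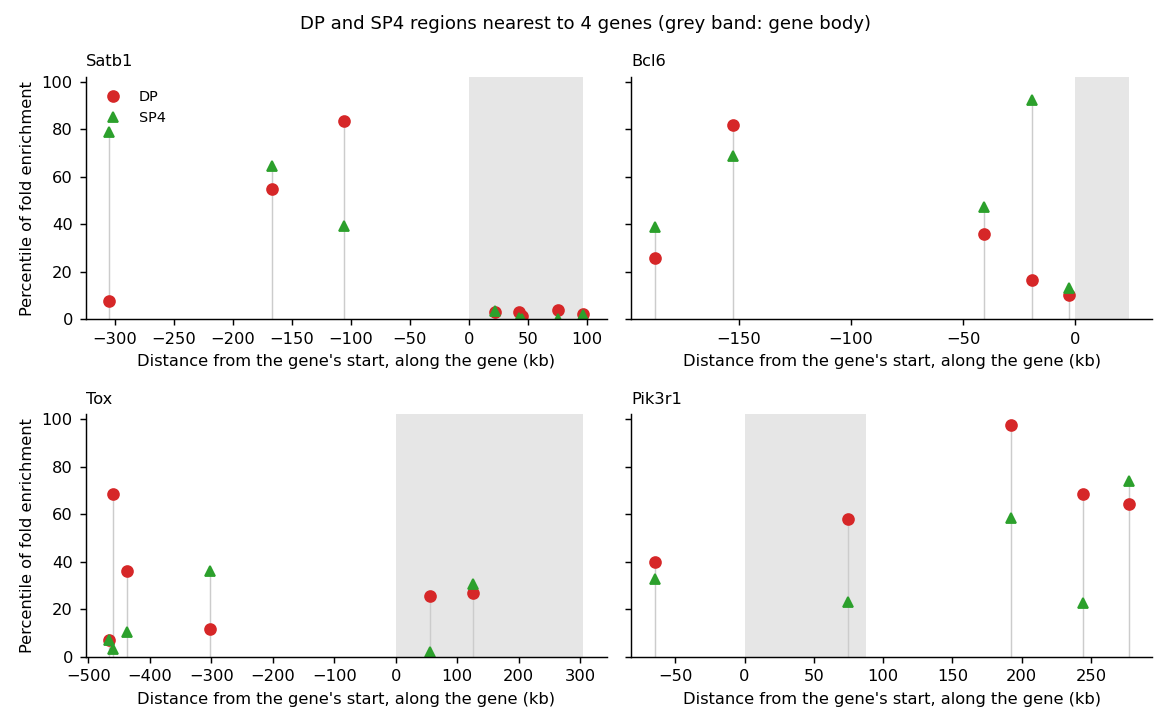
DP and SP4 regions nearest to *Satb1*, *Bcl6*, *Tox* and *Pik3r1*, by distance from the gene's start in the direction of transcription (kb) and percentile of fold enrichment at DP (circles) and SP4 (triangles). Grey bands are gene bodies. The *Satb1* regions within the gene lie under percentile 4 in both lists, and its 3 upstream regions reach 64.7 or more in at least 1 list.

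Among T cell genes, all lists but that of regulatory T cells had more genes with a region than the 17.7% of all genes. The thymic epithelial (3 of 10 genes, 30%) and B cell lists (2 of 10, 20%) exceeded it too. The genes of the T cell lists also lie among more merged regions, so the share of nearby regions is given beside each count. In the list of the DP programme, 8 of 19 genes (42.1%) had a region, and 18 of 664 nearby merged regions were DP and SP4 regions (2.71%, 1.72 to 4.24%, against 1.24% of all). Their median lower percentile was 10.7, against 16.6 over all 2302 regions. *Themis*, needed for positive selection, had 4. *Tcf12* (HEB, an E protein), *Ikzf3* and *Plxnd1* had 3 each. The *Ikzf3* region 592 bp upstream of its gene had percentiles of 26.7 and 31.8, with a DN peak 453 bp away. *Rag1*, *Rag2*, *Ptcra* and *Arpp21* had no region among 37, 36, 24 and 63 nearby merged regions.

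In the CD4 lineage list 7 of 20 genes had a region, and 14 of 906 nearby merged regions were members (1.55%, 0.923 to 2.58%). Their median lower percentile was 7.94, against 16.6 over all 2302 regions. *Satb1* had 5, *Bcl6* 3, *Tox* 2, and *Zbtb7b*, *Gata3*, *Myb* and *Il4ra* 1 each, while *Cd4* itself had none among 36 merged regions. *Zbtb7b* encodes ThPOK, the factor that commits cells to the CD4 lineage, and its region, at chr3:89373140-89373318 in an exon of *Dcst2*, stood at percentile 21.9 at DP and 17.9 at SP4. *Gata3* is needed for CD4 lineage cells, and its region within 50 kb lay 30108 bp downstream at percentiles of 11.4 and 26.1. For the CD8 lineage list the counts were 7 of 20 genes and 7 of 626 regions (1.12%, 0.543 to 2.29%). *Runx3* had none among 66 merged regions. *Cd8a*, which encodes a CD8 coreceptor chain, had 2 nearby. The *Cd8a* region at chr6:71390547-71390728, in an exon of *Rmnd5a* and printed above, stood at percentile 43.0 at DP and 28.3 at SP4, and the other, 4387 bp downstream, at 15.04 and 51.5. The *Runx1* region at chr16:92753995-92754235, in an intron, stood at percentile 41.9 at DP and 39.3 at SP4.

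The T cell receptor signalling list had 11 of 28 genes with a region and 17 of 1145 nearby merged regions (1.48%, 0.929 to 2.36%). Their median lower percentile was 19.3. *Ptprc*, which encodes the CD45 phosphatase, had 3. The region of *Rasgrp1*, a Ras activator downstream of the receptor, stood at percentile 30.7 at DP and 51.0 at SP4, and the *Nfatc1* region at 48.6 and 36.3. For positive selection and maturation, 8 of 24 genes and 14 of 904 regions (1.55%, 0.925 to 2.58%) were found, with a median lower percentile of 8.07. *Nr4a1*, an early response gene of the receptor, held a region in an exon at percentiles of 51.9 at DP and 39.2 at SP4. The *Ets1* region 30835 bp downstream stood at 52.1 and 19.3. *Ccr7*, *Klf2*, *S1pr1* and *Il7r*, genes of mature thymocytes, had none among 49, 36, 30 and 26 nearby merged regions. Others of this list did, with the same 3 regions within 50 kb of both *Gimap4* and *Gimap6*, 2 for *Itga4* and 1 for *Cd44*. In the regulatory T cell list 2 of 12 genes had a region, *Cd83* and *Tnfrsf9*, with 2 of 365 nearby merged regions (0.548%, 0.150 to 1.98%). Their median lower percentile was 30.6.

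Genes of other cell types were not free of such regions. They numbered 3 of 246 nearby merged regions for B cell genes (1.22%), 0 of 305 for myeloid and dendritic genes and 2 of 208 for erythroid genes (0.962%). For natural killer and innate genes there were 4 of 298 (1.34%, all at *Rora*), and for thymic epithelial genes 4 of 192 (2.08%, 0.813 to 5.23%). The counts were 2 of 248 for neuron genes (0.806%) and 0 of 91 for hepatocyte genes. A count of 0 of 305 allows a share of up to 1.24% (upper Wilson bound), so the myeloid list was not distinguishable from all regions, and 0 of 91 allows up to 4.05%. The tallest of these regions, within 50 kb of the thymic epithelial gene *Cldn4*, nearest to *Cldn3* and 606 bp from a DN peak, stood at percentile 60.1 at DP and 58.3 at SP4. Of all the lists, 2.71% for the DP programme was the highest share, and only its interval lay above 1.24%. The 10 T lineage markers, some of them also in other lists, had 7 of 316 (2.22%, 1.08 to 4.50%). The lists were drawn up with earlier results of these data known, so this ranking is a description.

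**Figure D5:**
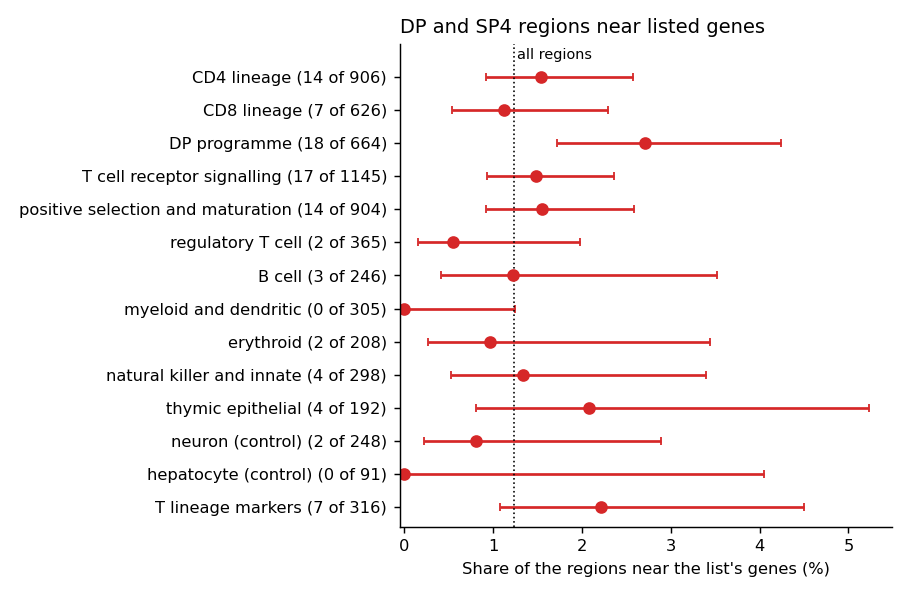
Share (%) of the merged regions in or within 50 kb of the genes of each list that were DP and SP4 regions, with 95% Wilson intervals and the counts beside each list's name. The dotted line is the share over all merged regions, 1.24%. The DP programme stands at 2.71%, and the intervals of the other lists reach the line.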

How the data were processed

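ATAC-seq peaks of DN, DP, SP4 and SP8 thymocytes (16 libraries, 4 mice) were analysed. The authors mapped trimmed reads to mm10 (BWA), discarded duplicate and poorly mapped pairs and down-sampled to the median depth of the libraries. They then pooled the mice of a stage and ran MACS2 with a false discovery rate of 5%. The deposited score of a peak is a rounded multiple of its −log10 q-value. The deposited fold enrichment is a ratio over the local background at the summit. The −log10 q-value is that the authors obtained from MACS2, and the deposited summit position is an offset within the peak.

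Peaks were merged with Python 3.11.15 and pandas 2.3.3 where they shared 1 bp. The gene annotation combined GENCODE M21 with RefSeq, 251533 transcripts on GRCm38. Sequences were read with pysam 0.24.0. Chromosome lengths of the reference held all peaks. Shares carry 95% Wilson intervals (scipy 1.17.1), and differences Newcombe intervals corrected for the number of comparisons. With 1 list per stage no test across mice was made. Merging, distances and motif matches were tested on simulated lists. Alternatives changed the q-value limit, list length, overlap, nearby absent-stage peaks, merging gap, height, promoter, annotation, window, summit and gene distance.

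Regions named were the 12 tallest in both lists, the 3 tallest per T cell list (1 for other lists), the genes nearest to most regions and those at the threshold. The members, lists and motifs were chosen with earlier results of these data known. Read counts were not used here, and 1 motif and 1 gene are not reported.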

Additional observations from a re-analysis of the deposited data

How the results depend on the processing

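No paired analysis was possible because the mice of a stage were pooled before peaks were called, and no mouse could be left out for the same reason. The higher E-box share against SP4 and SP8 regions passed under all 8 alternatives. The other motif differences passed under 7 of 8, except the SP motif (5 of 8). At equal list length the ratio to DP and SP8 regions was 1.03, the promoter share exceeded that of SP4 and SP8 regions by 1.35 points, 16 motif differences passed and 51.7% of regions were higher at DP. With peaks sharing at least 50% of each other, the promoter difference from all 3 later stages (-1.11 points) and the SP motif difference (-1.66) no longer passed. Without absent-stage peaks within 500 bp, the ratio was 2.29, the promoter share 3.38%, its differences -1.35 (DP and SP8), -0.0909 (SP4 and SP8, reversed) and -1.39 points (all 3 later stages), the median TSS distance 7608 bp, the SP motif difference -2.07 and the genes 2452. Merging peaks up to 100 bp apart gave a ratio of 1.97.

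Above the median height, 83 regions were left, with a ratio of 7.55, a promoter share of 2.41%, differences of 2.41 (DP and SP8, reversed, from 11 regions), -1.26 (SP4 and SP8, reversed) and -2.03 points (all 3 later stages), a median TSS distance of 9470 bp and 99 genes. There 1 motif difference passed. RUNX (-4.27 points against DP and SP8 and -11.5 against SP4 and SP8), NR4A (-3.22), AP-1 (-5.96), IRF (-4.03) and E-box against all 3 later stages (4.28) no longer passed, and SP reversed (2.41). The smaller number of regions widened the intervals.

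The promoter share was 10.9% with promoters of 1000 bp, 3.82% with GENCODE alone, 2.78% with RefSeq alone and 3.21% with protein-coding transcripts alone. With the last, it exceeded that of SP4 and SP8 regions by 1.40 points and the difference from all 3 later stages (-1.26) no longer passed. The median TSS distance was 7904.5, 11905 and 17709.5 bp for these 3 annotations. Windows of 200 bp gave 17 motif differences. Genes with a region numbered 1700 within 10 kb and 1141 in the gene body. The cause of these shifts was not tested.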
